A study of Mus musculus with 10 samples.

Results

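Chromatin accessibility was compared between MC3T3-E1 cells, a mouse osteoblast line, given TNFa and then BMP4 and the same cells given BMP4 alone, with 2 ATAC-seq libraries in each group. In ATAC-seq a transposase cuts open chromatin, and the sequenced ends (tags) that fall in a stretch of DNA measure how accessible it is. Every group was kept in 2.5% serum before treatment. Per the treatment protocol in the labels, TNFa was used at 10 ng/ml and BMP4 at 10 ng/ml, with a TNFa or no-TNFa step of 30 min before BMP4 for 3 h. The sample labels instead give 3 h for both agents, so how long TNFa was present before collection is uncertain. Untreated cells and cells given TNFa alone, also with 2 libraries each, are used only to set the TNFa difference beside that measured without BMP4. The titles of the TNFa-alone libraries also carry p65, which the labels do not explain. The labels do not say whether libraries came from separate cultures, so a p-value here reflects the spread among these libraries and no more, and that spread may be technical. In bulk samples, a change in fewer cells and a smaller change in all cells cannot be told apart.

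The authors deposited 1 list of accessible windows of 125 bp for each treatment, 23745 windows for TNFa+BMP4 and 24525 for BMP4. A window of one list was paired with a window of the other where their starts lay within 62 bp and each was the other's nearest. This gave 17889 pairs, out of 97788 windows summed over the 4 lists of the series. The pairs hold 75.3% of the TNFa+BMP4 list and 72.9% of the BMP4 list, with a median shift of 2 bp. Of the pairs, 17535 had at least 10 tags in at least 2 of the 4 libraries and were tested. Windows found in a single list are described separately further on. A gene's nearest window below is its nearest tested window, and a nearer one can be in a single list.

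TNFa is an inflammatory cytokine. Its receptor recruits adaptor proteins and ubiquitin ligases that activate the IKK kinases, which mark the inhibitory IkB proteins for destruction and free NF-kB dimers, such as p65 with p50, to enter the nucleus and bind their sites in DNA. BMP4 binds a receptor pair that phosphorylates SMAD1, SMAD5 and SMAD9, and these join SMAD4 to switch on genes such as Id1, Id2, Id3, Smad6 and Smad7. In osteoblasts, BMP signalling favours bone formation through regulators such as Runx2, Sp7 and Dlx5, whereas TNFa is known to restrain osteoblast differentiation and can, where its survival branch fails, lead to cell death.

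The promoters below show where the NF-kB consensus lies next to genes whose windows are described further on. Promoter sequences are from RefSeq (GRCm38.p6, the assembly behind mm10), which held 28 of 37 NF-kB target genes that the deposited lists name, 15 of 16 interferon response genes and 11 of 23 BMP/SMAD target genes. B2m comes from the interferon list. A stretch is shown for each of those genes with 1 promoter in the table, a match in the 250 bases before the start, and a tested window on those bases. The 7 NF-kB stretches are in the order of their windows' log2 differences, highest first, with the consensus match (either strand) in capitals.

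Il6 (chr5:30013045-30013104, + strand): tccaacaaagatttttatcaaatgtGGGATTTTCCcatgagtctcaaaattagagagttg

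Nfkbie (chr17:45555569-45555628, + strand): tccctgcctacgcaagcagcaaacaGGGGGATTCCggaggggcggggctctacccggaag

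B2m (chr2:122147536-122147595, + strand): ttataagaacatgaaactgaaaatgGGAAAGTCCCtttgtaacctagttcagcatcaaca

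Sod2 (chr17:13007731-13007790, + strand): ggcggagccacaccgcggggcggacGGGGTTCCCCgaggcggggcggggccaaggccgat

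Rel (chr11:23771027-23771086, - strand): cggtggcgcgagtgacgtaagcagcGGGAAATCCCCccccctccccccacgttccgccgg

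Sdc4 (chr2:164443236-164443295, - strand): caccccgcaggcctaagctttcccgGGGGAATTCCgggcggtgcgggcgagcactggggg

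Ier3 (chr17:35821596-35821655, + strand): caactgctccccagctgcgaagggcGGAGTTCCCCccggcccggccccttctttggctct

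The windows on these promoters differed by 1.13 (Il6), 1.11 (Nfkbie), 0.66 (B2m), 0.21 (Sod2), 0.17 (Rel), 0.03 (Sdc4) and -0.19 (Ier3) on the log2 scale, TNFa+BMP4 minus BMP4. Promoters with the consensus therefore had windows both well above 0 and near 0. The window covered the whole match at Nfkbie, B2m and Sdc4, only the edge of it at Ier3, and none of it at Il6, Sod2 and Rel. The consensus occurs in the 250 upstream bases of 7.25% of the 32851 promoters in the table, so a match alone is common. Of the 3494 tested windows whose whole sequence could be read from the promoter table, 173 held the consensus. Their median difference was 0.06, against 0.02 for the other 3321, and both TNFa+BMP4 libraries lay above both BMP4 libraries in 13.9% of the windows with a match and 11.9% of those without. Without BMP4 replicate 2, described below, the order of the medians turned, to 0.09 with the consensus and 0.12 without it.

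For the BMP side, the letters GGCGCC, a motif of BMP-activated SMAD proteins searched on both strands, were found in the same way at Id4 and Id2, whose products block the DNA binding of other helix-loop-helix factors.

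Id4 (chr13:48260943-48261002, + strand): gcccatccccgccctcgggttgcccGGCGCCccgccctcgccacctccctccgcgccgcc

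Id2 (chr12:25096283-25096342, - strand): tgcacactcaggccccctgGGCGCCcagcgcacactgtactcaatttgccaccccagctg

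Their windows were at -0.37 (Id4) and -0.82 (Id2), and neither window covered the match. GGCGCC occurs in the upstream bases of 9.59% of all promoters. Tested windows in promoter sequence had a median of 0.03 with it (424 windows) and 0.02 without it (3070 windows), or 0.14 and 0.11 without BMP4 replicate 2.

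The libraries held 26 and 27.9 M tags with BMP4 and 21.8 and 18.8 M with TNFa+BMP4 (M for mega), of which 4.06% to 6.45% lay in tested windows. Levels are given as CPM, tags per M tags in tested windows after TMM scaling (a trimmed mean of log ratios), so that 1 CPM stands for 0.860 to 1.80 tags. BMP4 replicate 2 lay furthest from the other 3 libraries. Across tested windows it correlated at 0.38 with BMP4 replicate 1, its own partner, whereas BMP4 replicate 1 correlated at 0.93 with TNFa+BMP4 replicate 1. With TNFa+BMP4 replicates 1 and 2, BMP4 replicate 2 correlated at 0.37 and 0.60. The TNFa+BMP4 libraries correlated at 0.72. On the first principal component (72.5% of the variance) BMP4 replicate 2 lay at 124.3 and the others between -69.4 and 14, with TNFa+BMP4 replicate 2 at 14. The deviation of replicate 1 from replicate 2 correlated at 0.62 between the groups, so it was partly shared and not confined to BMP4. Values without BMP4 replicate 2 are given beside the list medians and beside many of the single windows, and its part in the other values was not tested. Of 8 osteoblast markers, 7 (all but Alpl) had a window in both lists, with 4 within 1000 bp of a start in each list. All 8 of 8 chondrocyte markers had a window in the BMP4 list and 5 in the TNFa+BMP4 list, with 3 and 2 within 1000 bp. Of 6 adipocyte markers, 3 (Adipoq, Cebpa and Pparg) had a window in both lists, 1 of them within 1000 bp of a start. Of haematopoietic markers 1 to 2 of 6 and of muscle and endothelial markers 2 of 6 had a window, none within 1000 bp of a start. An accessible window is assigned to its nearest gene and does not measure that gene's expression.

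No window passed an adjusted p of 0.05 in limma (0 of 17535, or 0%). An unadjusted p under 0.05 was found in 163 windows (0.930%), 60 higher and 103 lower with TNFa+BMP4. Evenly spread p-values would put 877 windows there, so the fit was conservative and the 163 are not read as hits. With voom weights 0 passed and 162 had an unadjusted p under 0.05. With the deposited rlog values, whose median difference was 0.13, 0 passed and 222 had one, of which 200 were higher, so the balance of higher and lower windows turned with the scale. The smallest adjusted p was 1.00, and the median standard error of a window's log2 difference was 0.75. Far larger differences, such as 3.02 at 7420700N18Rik and 2.82 at Herc1, did not pass in this fit either. The lack of windows that passed therefore sets no limit on the size of the differences. The median difference was 0.00, and 8787 windows lay above 0. Both TNFa+BMP4 libraries lay above both BMP4 libraries in 2073 windows (11.8%) and below both in 2182 (12.4%). These 2 shares are the background against which the counts below are read. Scaling by total tags in place of TMM moved the median of all windows to -0.16 and these counts to 1536 and 2363 of the 17535, a share of 39.4% higher in place of 48.7%. Counts given below with total tags are to be read against these. Without BMP4 replicate 1, and with its partner as the only BMP4 library, 1099 windows passed, 733 higher and 366 lower. The lone library is then assumed to vary like the other group. Of these, 145 of the higher and 135 of the lower were also beyond BMP4 replicate 1. Leaving out any of the other 3 libraries gave 0.

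The windows with the smallest p among those higher in both TNFa+BMP4 libraries were distal, with distances from the nearest start that ran from -6822 bp (Slc34a2) to 226969 bp (Dusp10). The first, intergenic and -11259 bp from Pdgfb, which encodes a chain of platelet-derived growth factor (chr15:80026174-80026298), held 31.7 and 18.4 CPM with BMP4 and 184 and 160 CPM with TNFa+BMP4. The groups were far apart, with the lowest TNFa+BMP4 library at over 5 times the highest BMP4 library. The log2 difference was 2.74 ± 0.72 (SE), 2.38 without BMP4 replicate 2. In intron 6 of Mapt, which encodes tau, a protein that binds microtubules, a window (chr11:104303674-104303798) held 28.0 and 18.4 CPM against 148 and 130 CPM, a difference of 2.52 ± 0.71.

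Gdnf, the gene of a neurotrophic factor, had a window 23534 bp from its start at 20.5 and 7.80 CPM against 106 and 62.3 CPM. Dusp10, a phosphatase that switches off JNK and p38 kinases, had a window 226969 bp away at 25.2 and 30.6 CPM against 248 and 104 CPM. In both the groups did not overlap, by the rule that chose them, and the differences were 2.51 ± 0.75 and 2.46 ± 0.76. Others were next to 7420700N18Rik (3.02), Herc1 (2.82), Rassf6 (2.36), Llph (2.29) and Slc34a2 (2.14). None passed, with an adjusted p of 1.00 for each in limma. With the replicate number as a block, 7420700N18Rik and Herc1 did pass, at adjusted p-values in limma of 0.00179 and 0.00922. Each of the windows named here kept its sign in every alternative in which it was tested. They were chosen for groups that do not overlap, so a reversal was unlikely from the start and the kept sign is no support.

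Among windows lower in both TNFa+BMP4 libraries, one in intron 3 of Tcf7l1, a transcription factor of the Wnt pathway that mostly represses (chr6:72711432-72711556), held 111 and 158 CPM with BMP4 and 33.7 and 20.1 CPM with TNFa+BMP4. Intron 1 of Tom1l2, a gene of membrane trafficking (chr11:60294336-60294460), held 138 and 210 CPM against 34.9 and 34.2 CPM. An intergenic window 102907 bp from B3gnt2, a glycosyltransferase gene, held 65.3 and 43.4 CPM against 12.8 and 7.04 CPM. Both TNFa+BMP4 libraries were far below the lower BMP4 library in each, and the differences were -2.27 ± 0.73, -2.25 ± 0.70 and -2.29 ± 0.70. St6gal1, a sialyltransferase gene, had a window in intron 1 at 42.9 and 86.9 CPM against 8.14 and 19.1 CPM, at -2.14 ± 0.75. The remaining windows lay next to 1700021F07Rik, Upk3b (inside Dtx2), C330004P14Rik, Zbtb7c, E330011O21Rik and D630045J12Rik, from -2.24 to -1.93. Here too the adjusted p was 1.00 in limma, and all 10 kept their sign in every alternative in which they were tested. This again follows largely from how they were chosen.

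**Figure D1:**
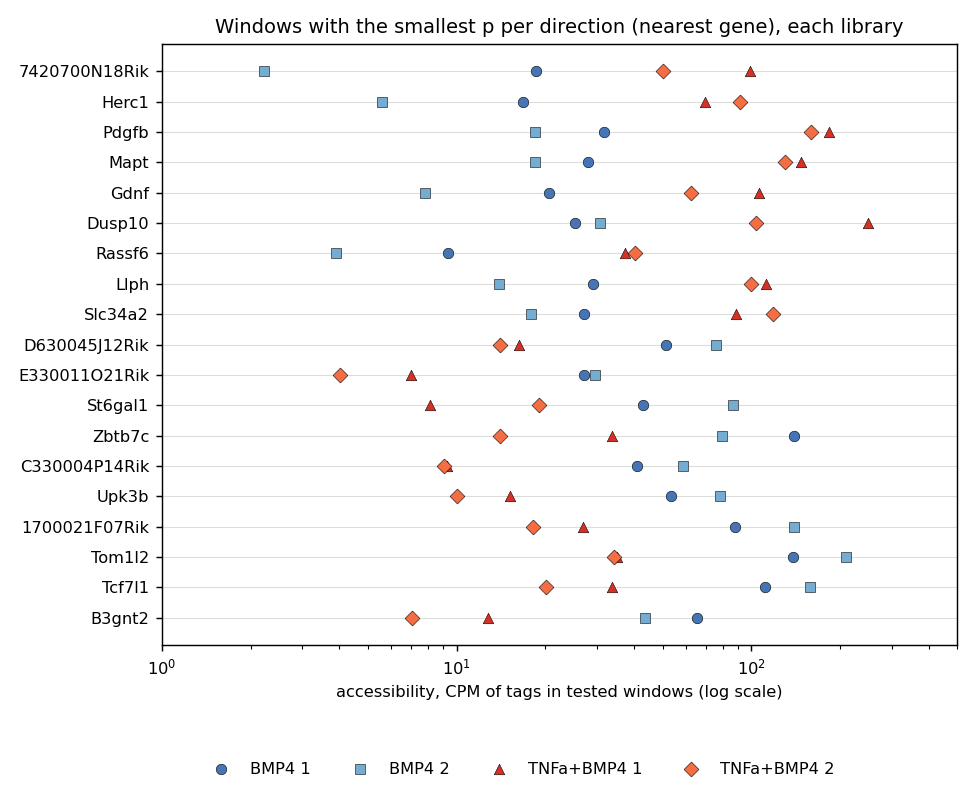
Accessibility in CPM (log axis) in each of the 4 libraries, for 9 higher and 10 lower windows among those with the smallest unadjusted p whose groups do not overlap, named by nearest gene and ordered by log2 difference. Circles and squares are the BMP4 libraries, triangles and diamonds those with TNFa+BMP4. The Pdgfb window runs from 18.4 to 184 CPM, and for 7420700N18Rik the 2 BMP4 libraries (18.7 and 2.23 CPM) differ more from each other than the TNFa+BMP4 libraries do.

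Windows next to NF-kB target genes lay higher with TNFa+BMP4 than windows at large. Of 81 such windows at 31 genes, 62 were above 0 and the median difference was 0.40, against 0.00 over all tested windows. Both TNFa+BMP4 libraries lay above both BMP4 libraries in 23 of the 81 (28.4%, background 11.8%) and below both in 2 (2.47%, background 12.4%). With total tags these counts were 24 and 4. The median was 0.26 without BMP4 replicate 2, with 55 of 79 windows above 0, and 0.65, 0.33 and 0.76 without BMP4 replicate 1 and TNFa+BMP4 replicates 1 and 2. In 2 of the windows the unadjusted p was under 0.05, both higher, and none passed when adjusted over all windows.

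Among the chemokines and cytokines, Ccl2, which draws monocytes, had 2 distal windows in which all libraries of the groups were apart. The window -23584 bp from its start (chr11:82011931-82012055) held 54.1 and 31.7 CPM with BMP4 and 190 and 128 CPM with TNFa+BMP4, a difference of 1.86 ± 0.72. The window at -2447 bp (chr11:82033068-82033192) held 14 and 23.9 CPM against 51.2 and 96.5 CPM, at 1.85 ± 0.73. Without BMP4 replicate 2 these were 1.51 and 2.20, so both remained well above 0. The Ccl2 promoter window itself (chr11:82035485-82035609) overlapped between groups, at 21.5 and 102 CPM against 44.2 and 79.4 CPM, and its difference of 0.31 ± 0.89 changed sign without BMP4 replicate 1.

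Il6, the gene of interleukin 6, had a window in intron 1 just after the start (chr5:30013197-30013321) at 39.2 and 16.1 CPM against 68.6 and 85.5 CPM, a difference of 1.54 ± 0.75. Its promoter window (chr5:30012886-30013010) held 59.7 and 16.1 CPM against 72.1 and 69.4 CPM. The groups did not overlap there either, but BMP4 replicate 1 was close to the TNFa+BMP4 libraries, and without BMP4 replicate 2 the difference of 1.13 became 0.26. Ccl5, another chemokine, had a window at -4381 bp with 27.1 and 49 CPM against 73.3 and 107 CPM, at 1.24 ± 0.73 and at 1.66 without BMP4 replicate 2. Lif, a cytokine of the interleukin 6 family, had a window 42408 bp away at 81.2 and 17.8 CPM against 163 and 136 CPM (1.90 ± 0.85). The Lif window nearest the start, in its 3′ UTR, was at 0.63 ± 0.71 and at -0.028 without BMP4 replicate 2. Csf1, the growth factor of macrophages and osteoclast precursors, had windows at 1.21 and 1.01 whose groups were apart, while the tested window nearest its start was at -0.04 ± 0.76.

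The genes that carry NF-kB signalling or shut it off again gave the same range of values. Nfkb2 encodes the p100 precursor of p52. One of its promoter windows (chr19:46305616-46305740) held 87.7 and 19.5 CPM with BMP4 and 163 and 152 CPM with TNFa+BMP4, a difference of 1.87 ± 0.84 that was 0.85 without BMP4 replicate 2. A neighbouring Nfkb2 promoter window was at 1.40 ± 0.77, and the one furthest upstream at 0.09 ± 0.72, with 81.2 and 229 CPM against 135 and 156 CPM. Nfkbia, which encodes the inhibitor IkBa, had a window 27682 bp from its start (chr12:55464903-55465027) at 49.5 and 11.1 CPM against 89.6 and 71.4 CPM, at 1.67 ± 0.84. In the Nfkbia window nearest the start, at -6148 bp, libraries of the groups overlapped (44.8 and 6.68 CPM against 67.5 and 23.1 CPM), and the difference of 1.07 ± 0.95 was -0.14 without BMP4 replicate 2. Nfkbie, the gene of IkBe, had its promoter window at 31.7 and 24.5 CPM against 48.9 and 78.4 CPM, at 1.11 ± 0.71.

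Zc3h12a, a ribonuclease that degrades inflammatory mRNAs, had 2 windows with groups apart, at 1.45 ± 0.75 (11503 bp away) and at 1.04 ± 0.69 (intron 2). The intron 2 window held 58.8 and 71.3 CPM against 107 and 170 CPM, so it did not rest on BMP4 replicate 2. Traf1, an adaptor of TNF receptors, had a window in intron 3 at 17.7 and 13.4 CPM against 59.3 and 24.1 CPM, at 1.21 ± 0.73. Tnfaip3, the ubiquitin-editing enzyme A20, had its nearest tested window at -30792 bp, where 20.5 and 20.6 CPM stood against 23.3 and 26.1 CPM, a difference of only 0.24 ± 0.66. The subunit genes Nfkb1 (0.49 ± 0.71), Relb (0.13 ± 0.64) and Rel (-0.04 ± 0.71) and the co-activator gene Bcl3 (0.75 ± 0.76) had overlapping groups in the window nearest their start, as did Tnip1, a partner of A20 (0.22 ± 0.77). Of these, Relb was at -0.04 with total tags, and Rel at 0.06 with the deposited rlog values.

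Among effector genes, the window of Nos2, the inducible nitric oxide synthase, at -33556 bp held 24.3 and 24.5 CPM against 51.2 and 66.4 CPM, at 1.2 ± 0.69. Icam1, an adhesion molecule for leukocytes, was at 0.68 ± 0.70 (18.7 and 20 CPM against 44.2 and 23.1 CPM) and Vcam1, another, at -0.06 ± 0.75. Sod2, the mitochondrial superoxide dismutase, had its promoter window at 101 and 83.0 CPM against 111 and 102 CPM, apart but by a difference of 0.21 ± 0.67. Both lower windows with groups apart were at membrane protein genes, the promoter of the zinc transporter Slc39a14 (40.1 and 142 CPM against 25.6 and 32.2 CPM, -1.35 ± 0.81) and intron 1 of the proteoglycan Sdc4 (-0.84 ± 0.70). Windows of Cd44, the hyaluronan receptor, ran from -1.11 to 1.90, so a single gene could hold values at either end.

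**Figure D2:**
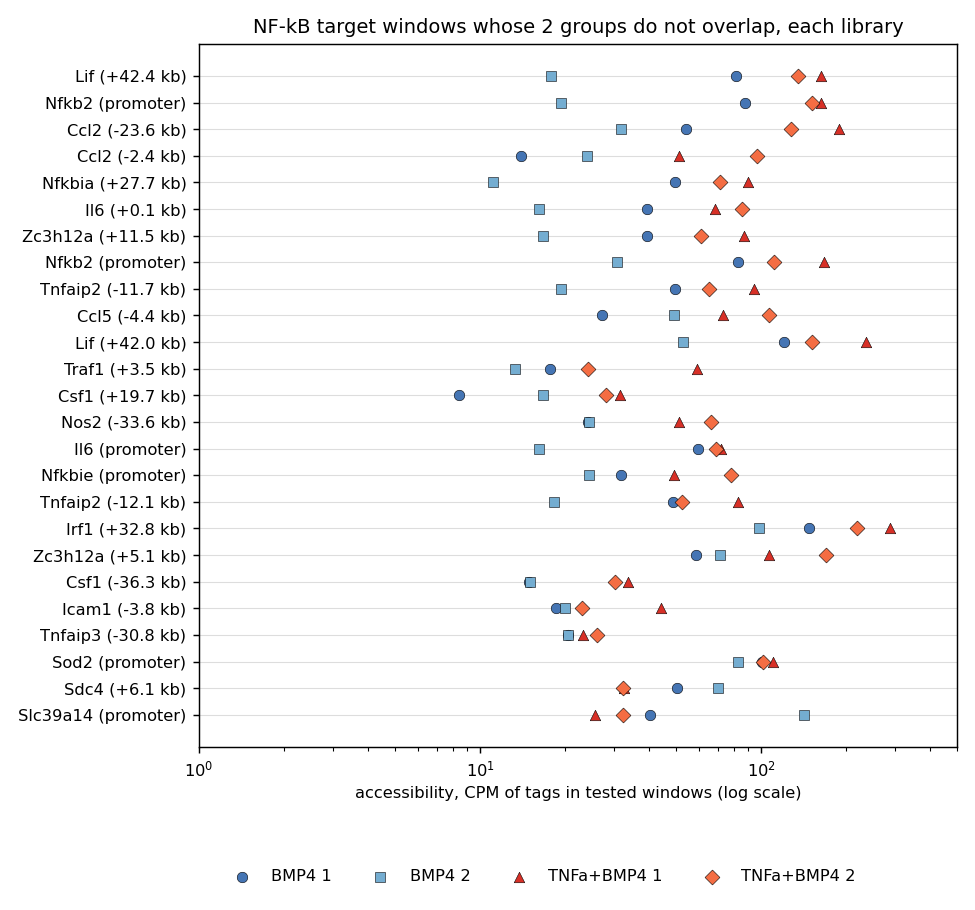
Accessibility in CPM (log axis) in each library for the 25 NF-kB target windows whose 2 groups do not overlap, named by gene and by position (promoter, or distance from the start in kb). In 23 rows both TNFa+BMP4 libraries (triangles, diamonds) lie to the right of both BMP4 libraries (circles, squares), and at Sdc4 and Slc39a14 to the left. In several rows, such as Lif, Nfkb2 and Nfkbia, BMP4 replicate 2 (square) lies well below BMP4 replicate 1.

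Interferon response genes, which include antigen presentation genes and the feedback inhibitor Socs1, had 19 windows at 9 genes, 14 of them above 0 at a median of 0.67. The groups were apart and higher in 6 (31.6%) and apart and lower in 0. This median rested on BMP4 replicate 2, since it was 0.13 without that library. Tap1, a subunit of the peptide transporter, had 2 promoter windows. One, at the start it shares with the neighbouring gene Psmb9, an immunoproteasome subunit (chr17:34187674-34187798), held 116 and 38.4 CPM with BMP4 and 143 and 190 CPM with TNFa+BMP4, at 1.28 ± 0.76, and the other held 56.9 and 59 CPM against 86.1 and 142 CPM, at 0.91 ± 0.71. The second pair of BMP4 values was close together, and its difference was 0.96 without BMP4 replicate 2.

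Irf1, a transcription factor on this list and on the NF-kB list, had a window 32800 bp away, in intron 3 of the noncoding gene Gm12216, at 148 and 98.6 CPM against 289 and 220 CPM, a difference of 1.05 ± 0.62. Its promoter window nearest the start was at 0.24 ± 0.76 and overlapped. All 5 Socs1 windows were above 0, from 0.64 to 1.36. In 3 of them the difference was 0.06 or less without BMP4 replicate 2, whereas the window 30842 bp away (58.8 and 75.7 CPM against 90.7 and 121 CPM) kept 0.83. B2m, the light chain of class I molecules, had its promoter window at 18.7 and 22.8 CPM against 23.3 and 48.3 CPM (0.66 ± 0.71). The lowest windows were the promoter of Stat2 (-0.58 ± 0.82) and another Gm12216 intron window assigned to Irf1 (-0.58 ± 0.75).

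The receptor and kinase genes that pass the TNFa signal on did not lie higher as a group. Of 36 windows at 19 genes, 17 were above 0 and the median was -0.17, with 5 higher and 5 lower windows whose groups were apart (13.9% each), or 2 and 5 with total tags. The median was -0.037 without BMP4 replicate 2, -0.36 without BMP4 replicate 1, and -0.10 and -0.030 without TNFa+BMP4 replicates 1 and 2. Traf2, an adaptor at the receptor, had a window in intron 4 at 54.1 and 26.7 CPM against 107 and 69.4 CPM, at 1.14 ± 0.75. Rela, which encodes p65, had a window at 0.89 ± 0.70 past its transcript (19.6 and 25.1 CPM against 31.4 and 57.3 CPM) and a promoter window at 0.32 ± 0.78 with overlapping groups. The highest windows were at the promoter that Sharpin shares with Maf1 (1.32 ± 1.02) and at that of Traf5 (1.21 ± 1.35), and their differences were -0.33 and -1.01 without BMP4 replicate 2.

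BMP/SMAD target genes had 60 windows at 20 genes, with 23 above 0 and a median of -0.18. The groups were apart and higher in 6 (10.0%, background 11.8%) and apart and lower in 10 (16.7%, background 12.4%), shares near those of all windows. The median was -0.08 without BMP4 replicate 2 and -0.28 without BMP4 replicate 1. The promoter windows of Id3, Id2 and Id1, direct targets of the pathway, were at -0.33, -0.82 and -0.13. Id3 (chr4:136143647-136143771) held 299 and 253 CPM with BMP4 and 233 and 205 CPM with TNFa+BMP4, apart, at -0.33 ± 0.54, which became 0.12 with the deposited rlog values. Id2 (chr12:25096129-25096253) held 42.9 and 133 CPM against 39.6 and 45.2 CPM, and its -0.82 ± 0.79 was 0.0024 without BMP4 replicate 2. Id1 overlapped at its promoter, with 38.3 and 70.2 CPM against 30.2 and 73.4 CPM (-0.13 ± 0.78), at 0.31 without BMP4 replicate 2.

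A second Id2 window, -5024 bp from the start, held 90.5 and 104 CPM against 64.0 and 44.2 CPM, at -0.84 ± 0.70 and at -0.72 without BMP4 replicate 2, so it did not rest on that library. Id4 had the lowest window of the list, -33194 bp away inside the noncoding gene A330033J07Rik, at 35.5 and 79.1 CPM against 18.6 and 25.1 CPM (-1.23 ± 0.73). Atoh8, a helix-loop-helix factor, had one at -1.02 ± 0.71 (26.1 and 41.2 CPM against 20.9 and 11.1 CPM), whereas the one nearest its start was at -0.32 ± 0.73. Of the inhibitory SMAD genes, Smad6 had its promoter window at 55.1 and 125 CPM against 57.0 and 46.3 CPM (-0.68 ± 0.75) and an intron 1 window apart at 36.4 and 40.1 CPM against 26.8 and 28.2 CPM (-0.45 ± 0.67). Smad7 had its nearest window at -0.14 ± 0.69 with overlapping groups.

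Other windows of the list lay higher. The highest was next to Rgs4, a regulator of G-protein signalling, -4563 bp from its start (chr1:169752143-169752267). It held 6.53 and 6.68 CPM with BMP4 and 40.7 and 26.1 CPM with TNFa+BMP4, a difference of 2.05 ± 0.69 that was as large without BMP4 replicate 2 (2.04). Upstream of Id1, at -9376 and -9050 bp, 2 neighbouring windows were at 1.53 ± 0.83 and 1.33 ± 0.75, the first with 70.0 and 17.8 CPM against 124 and 90.5 CPM. The Id1 promoter window, whose groups overlapped, was below 0 with all libraries but above 0 without BMP4 replicate 2. Its contrast in sign with the upstream windows thus rested on that library and was not tested. A window 5218 bp from Hes1, a repressor of differentiation, was at 1.15 ± 0.78, and its promoter window overlapped at -0.91 ± 0.80.

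BMP receptors, SMADs and their cofactors had 41 windows at 16 genes, 18 above 0, at a median of -0.07. This was -0.023 without BMP4 replicate 2 and turned to 0.11, with 23 of 41 above 0, without TNFa+BMP4 replicate 1. The groups were apart and higher in 3 and apart and lower in 7 (7.32% and 17.1%). The lower ones included an intron 4 window of Chrdl1, a secreted BMP antagonist, with 110 and 244 CPM against 55.8 and 75.4 CPM (-1.31 ± 0.72). An intron 1 window of Smurf1, a ubiquitin ligase that degrades SMADs, held 20.5 and 66.8 CPM against 6.98 and 17.1 CPM (-1.61 ± 0.81). A window assigned to Smad5, which lies in intron 7 of Trpc7, held 28.9 and 61.3 CPM against 11.6 and 19.1 CPM (-1.40 ± 0.72). All 3 remained lower without BMP4 replicate 2, at -0.72, -0.76 and -0.84. The highest window was upstream of Skil, a SMAD co-repressor, at 32.7 and 5.57 CPM against 45.4 and 66.4 CPM (1.84 ± 0.86).

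Osteoblast genes had 65 windows at 19 genes, 25 above 0, at a median of -0.13. Both TNFa+BMP4 libraries lay below both BMP4 libraries in 13 windows (20%, background 12.4%) and above both in 4 (6.15%, background 11.8%). The median was -0.17 without BMP4 replicate 2, -0.05 without BMP4 replicate 1, and -0.36 and -0.02 without TNFa+BMP4 replicates 1 and 2. With the deposited rlog values it was 0.03, beside 0.13 over all windows. Runx2, the master regulator of osteoblasts, had 2 lower windows that did not rest on BMP4 replicate 2. Both lie in intron 5 of a noncoding Runx2 transcript, 146977 and 143394 bp from the nearest start. The first (chr17:44589137-44589261) held 119 and 98.0 CPM with BMP4 and 47.7 and 23.1 CPM with TNFa+BMP4, at -1.64 ± 0.74. The second (chr17:44592720-44592844) held 67.2 and 105 CPM against 37.2 and 29.2 CPM, at -1.30 ± 0.72.

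Without BMP4 replicate 2 those Runx2 windows were at -1.75 and -0.96. Another Runx2 window, in intron 5 of a coding transcript, was higher in both libraries (18.7 and 7.80 CPM against 30.2 and 26.1 CPM, 1.10 ± 0.72), and the promoter window overlapped, with 77.4 and 90.8 CPM against 52.4 and 109 CPM (-0.15 ± 0.73). Sp7, which acts after Runx2, had its nearest window at 0.37 ± 0.82, and at -0.49 without BMP4 replicate 2. The collagen gene Col1a1 had its promoter window at 56.0 and 87.4 CPM against 53.5 and 50.3 CPM (-0.42 ± 0.71), and Dlx5, a homeobox factor, at 53.2 and 51.2 CPM against 46.5 and 36.2 CPM (-0.33 ± 0.70). The lowest window was next to Postn, an extracellular matrix gene of the bone surface, at 14 and 62.9 CPM against 10.5 and 5.03 CPM (-1.82 ± 0.85). At Vdr, the vitamin D receptor gene, and Pth1r, the parathyroid hormone receptor gene, each of 2 windows was lower with groups apart, from -1.44 to -1.24. There the higher level came mainly from BMP4 replicate 2, and without it the differences were between -0.27 and -0.06. Among the higher windows of the list was a distal one of Spp1, the osteopontin gene (1.38 ± 0.88), at 0.26 without BMP4 replicate 2.

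AP-1 and immediate early genes, which respond to many stimuli within minutes, had 96 windows at 24 genes with a median of 0.04, which was 0.08 without BMP4 replicate 2 and -0.023 without TNFa+BMP4 replicate 1. The groups were apart and higher in 17 (17.7%) and apart and lower in 12 (12.5%). With total tags these counts were 11 and 14. The higher ones included a window -1951 bp from Zfp36, which encodes an mRNA-destabilising protein, at 66.3 and 86.3 CPM against 173 and 180 CPM (1.21 ± 0.66, 1.41 without BMP4 replicate 2). A Fos window 24081 bp away held 46.7 and 44.5 CPM against 87.3 and 117 CPM (1.12 ± 0.70), and an Egr1 promoter window 127 and 78.5 CPM against 184 and 323 CPM (1.27 ± 0.66). Junb had its nearest tested window at 0.90 ± 0.75. However, regions at the Junb promoter (-69 bp, 60 and 149 tags) and the Zfp36 promoter (-127 bp, 46 and 195 tags) were in the BMP4 list only. A region -2807 bp from Zfp36 (47 and 22 tags) was in the TNFa+BMP4 list only. Over this gene list, 16 regions were in the TNFa+BMP4 list only and 17 in the BMP4 list only (0.420% and 0.349% of all such regions). The promoters of Atf3 (0.26 ± 0.83) and Fosl2 (-0.28 ± 0.61) overlapped.

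Lower values within the same list were found at Klf2, a factor better known from endothelium, and at the nuclear receptor gene Nr4a1. All 3 tested Klf2 windows were lower with groups apart, and 1 of them lay 31994 bp away in intron 22 of Eps15l1. Another region of that intron, 757 bp from the nearest BMP4 window, was in the TNFa+BMP4 list only, with 12 and 16 tags. The upstream one (chr8:72303086-72303210) held 53.2 and 67.9 CPM with BMP4 and 24.4 and 12.1 CPM with TNFa+BMP4, at -1.70 ± 0.71 and at -1.49 without BMP4 replicate 2. The promoter one held 155 and 329 CPM against 105 and 143 CPM (-0.88 ± 0.66, and -0.31 without BMP4 replicate 2). Nr4a1 had its promoter window at 38.3 and 89.1 CPM against 32.6 and 19.1 CPM (-1.17 ± 0.76).

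Genes that inhibit cell death had 32 windows at 14 genes, 20 above 0, at a median of 0.19 (0.02 with total tags, where all windows were at -0.16). Without BMP4 replicate 1 the median was -0.028, with 16 of 32 above 0, and without BMP4 replicate 2 it was 0.22. The groups were apart and higher in 6 (18.8%) and apart and lower in 2 (6.25%), or 4 and 0 with total tags. Mcl1, an anti-apoptotic BCL2 family member, had a well covered upstream window (chr3:95650943-95651067) at 233 and 225 CPM against 308 and 319 CPM, at 0.45 ± 0.52, and a promoter window at -0.56 ± 0.92 whose groups overlapped. Bcl2l1, which encodes BCL-XL, had its promoter window at 39.2 and 27.8 CPM against 37.2 and 38.2 CPM (0.18 ± 0.69). Cflar, the inhibitor of caspase-8 known as cFLIP, had its nearest window at 7.46 and 13.4 CPM against 8.14 and 17.1 CPM (0.21 ± 0.75). In the windows nearest the starts of these 3 genes the groups thus overlapped. Birc2, the gene of cIAP1, had its promoter window lower, at 97.0 and 104 CPM against 84.9 and 76.4 CPM (-0.31 ± 0.68).

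Genes that carry out cell death had 32 windows at 15 genes, 17 above 0, at a median of 0.05, with 4 higher and 4 lower windows whose groups were apart (12.5% each). The median changed sign with the library left out, from -0.24 without BMP4 replicate 1 to 0.20 without BMP4 replicate 2, and was -0.071 without TNFa+BMP4 replicate 2. Bid, which links death receptors to mitochondria, had the lowest window (intron 1, 133 and 234 CPM against 76.8 and 84.5 CPM, -1.12 ± 0.67). The promoter of Bcl2l11, the gene of BIM, was at 38.3 and 74.6 CPM against 25.6 and 30.2 CPM (-0.91 ± 0.72). Bbc3, the gene of PUMA, had 2 neighbouring intron 2 windows at 1.43 each. One of them reversed to -0.49 without BMP4 replicate 2. Mlkl, the executor of necroptosis, had its promoter window at 15.9 and 20 CPM against 22.1 and 31.2 CPM (0.52 ± 0.67).

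Matrix remodelling genes had 75 windows at 18 genes with a median of 0.14, and the groups were apart and higher in 17 (22.7%) and apart and lower in 3 (4.00%). With total tags the counts were 9 and 2 and the median -0.03, above the -0.16 of all windows. The median was 0.12 without BMP4 replicate 2, and the other libraries left out in turn moved it between 0.05 (TNFa+BMP4 replicate 1) and 0.24 (BMP4 replicate 1). Plaur, the urokinase receptor gene, had a window -2497 bp from its start at 29.9 and 12.8 CPM against 82.6 and 42.2 CPM (1.51 ± 0.76). Timp1, an inhibitor of matrix proteases, had 2 promoter windows apart, one at 15.9 and 8.91 CPM against 30.2 and 33.2 CPM (1.29 ± 0.69) and one at 0.79 ± 0.74. Mmp14, a membrane-bound collagenase, had an intron 1 window at 20.5 and 13.4 CPM against 39.6 and 37.2 CPM (1.13 ± 0.68). Of 8 windows of the fibrillar collagen gene Col5a1, 4 were higher with groups apart, from 0.50 to 0.92. The lowest window of the list was next to Lox, the collagen crosslinking enzyme (-1.49 ± 0.84).

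Markers of other cell types were few. Chondrocyte markers had 18 windows at 5 genes, 6 above 0, at a median of -0.24. The groups were apart and higher in 0 (background 11.8%) and apart and lower in 6 (33.3%, background 12.4%), or 1 and 4 with total tags. The median was -0.24 without BMP4 replicate 2 also, but -0.021 without BMP4 replicate 1 and -0.0036 without TNFa+BMP4 replicate 2. The lower windows include an intron 1 window of Col2a1, the cartilage collagen (206 and 385 CPM against 170 and 174 CPM, -0.71 ± 0.59), and an intron 7 window of Sox6, a cartilage factor (48.5 and 86.9 CPM against 22.1 and 35.2 CPM, -1.17 ± 0.73). Sox6 also held the highest window of the list, at 1.56, whose sign turned with a library left out. Of its 8 windows, 3 were above 0 and 3 were lower with groups apart. Muscle and endothelial markers had 11 windows at 4 genes at a median of -0.24, with 4 lower (36.4%, background 12.4%) and 0 higher, and a median of -0.069 without BMP4 replicate 2. Adipocyte markers (10 windows, median -0.15) and haematopoietic markers (15 windows at 2 genes, median 0.11) changed sign with the library left out, at 0.54 for the former without BMP4 replicate 1 (-0.41 without BMP4 replicate 2) and at -0.34 for the latter without BMP4 replicate 2. Housekeeping genes, the controls, had 42 windows at 19 genes at a median of 0.10 (0.026 without BMP4 replicate 2), with 8 higher (19.0%) and 4 lower (9.52%). The share of higher windows in the control list was thus above the background too, and below the 28.4% of NF-kB targets.

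**Figure D3:**
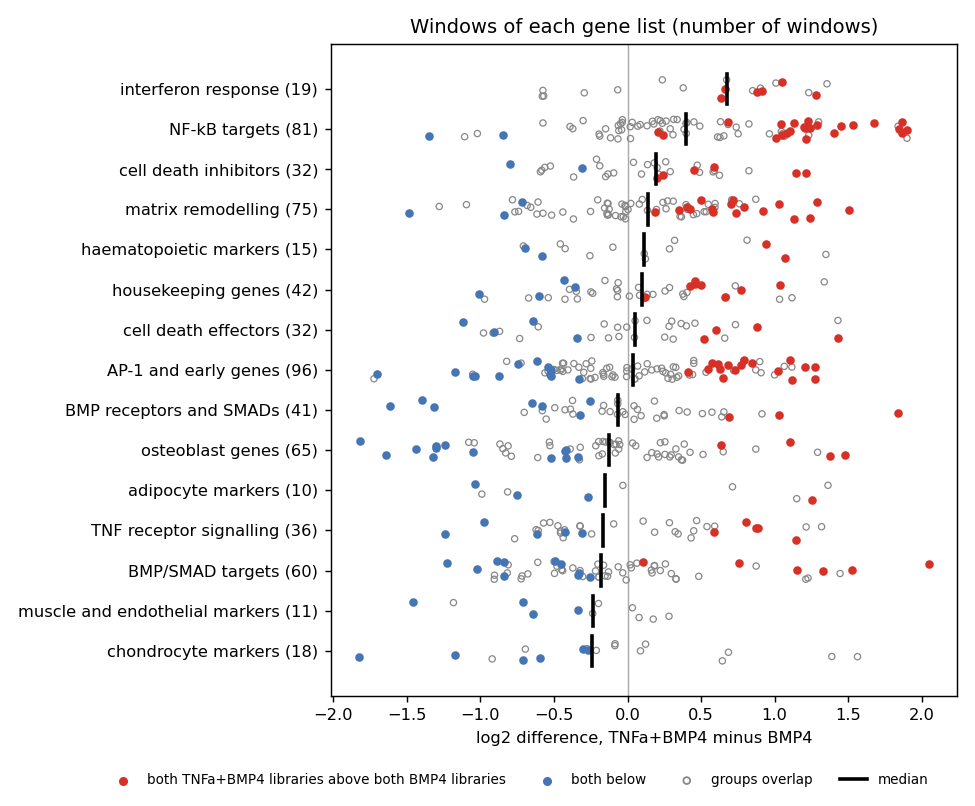
Log2 difference (TNFa+BMP4 minus BMP4) of every tested window of the 15 gene lists, 1 point a window, with the number of windows in parentheses and a bar at the list median. Filled red points have both TNFa+BMP4 libraries above both BMP4 libraries, filled blue points both below, and open points overlap. Medians run from -0.24 (chondrocyte markers) to 0.67 (interferon response), and red points crowd the right of the NF-kB row (23 red, 2 blue).

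By position, promoter windows had a median of 0.05, with 12.2% apart and higher and 8.80% apart and lower among 6704. Windows in introns after the first had a median of -0.11, with 11.8% and 16.9% among 2788, and intergenic windows beyond 50 kb from a start had -0.08, with 10.95% and 16.9% among 1589. First introns (2266 windows) were at 0.00, intergenic windows within 50 kb (3391) at -0.02, and exons, UTRs and transcript ends (797) at 0.07. Without BMP4 replicate 2, promoters stayed at 0.06 and every other class was below 0, with first introns lowest at -0.12 and later introns at -0.062. Windows lower in both TNFa+BMP4 libraries were thus a larger share in later introns and beyond 50 kb than in promoters, and no test was made of this. Several genes held many lower windows. Of 1828 genes with at least 3 tested windows, 64 had 3 or more lower windows with groups apart and 44 had 3 or more higher ones. These genes were picked out after their values were seen. At Sorbs2, an adaptor of the actin cytoskeleton, 7 of 13 windows were lower and none higher, at Gse1 5 of 10, and at Wwp2, a ubiquitin ligase gene, 4 of 6, with all 6 of its windows below 0 (median -1.26, and -1.0 without BMP4 replicate 2). Ddr1, a collagen receptor, had 4 of 6 lower with all 6 below 0 (median -0.89).

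Regions present in a single list were counted apart from the tested windows. Such a region had no window of the other list within 500 bp. There were 3810 in the TNFa+BMP4 list and 4870 in the BMP4 list, and each list was called by the authors on pooled replicates, so these counts have no replicate. A single-list region shows that a window did not pass the authors' threshold in the other list, not that it was closed there. Each TNFa+BMP4 library was also shallower than each BMP4 library, and the part of depth in these counts was not tested. Of the BMP4-only regions, 2163 (44.4%) had over 3 times the level in BMP4 replicate 2 that they had in replicate 1. Of the TNFa+BMP4-only regions, 341 (8.95%) had such a ratio between their replicates.

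NF-kB target genes held 42 of the TNFa+BMP4-only regions (1.10%), at 23 genes, and 6 of the BMP4-only regions (0.123%). Of the 42, 20 were also in the TNFa list but not in that of untreated cells, 10 in both, 12 in neither and 0 in the untreated list alone. The highest mean CPM, 76.1, was shared by a pair of them. One lay 13321 bp from Cx3cl1, a membrane-bound chemokine (chr8:94785439-94785563), with 66 and 75 tags, or 76.8 and 75.4 CPM. This Cx3cl1 region was also in the list of untreated cells and in that of TNFa alone. The other, a Ccl2 region at -18982 bp (chr11:82016533-82016657), held 34 and 112 tags, and 2 neighbouring regions in intron 2 of Icam1 held 67 and 41 and 67 and 32 tags. Further regions lay in intron 1 of Nfkbie (36 and 59 tags) and intron 8 of Csf1 (48 and 36 tags). The promoter of Zc3h12a held 27 and 19 tags and that of Tnfrsf9, the T-cell co-receptor 4-1BB, only 7 and 10. Background libraries of sonicated DNA held 11 and 13 tags at the Cx3cl1 region and 7 and 7 at the first Icam1 region.

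BMP/SMAD target genes had 8 TNFa+BMP4-only regions (0.210% of all such regions) and 16 BMP4-only regions (0.329%). Osteoblast genes had 10 (0.262%) and 16 (0.329%), so their shares were close. In both lists 6 of the 16 BMP4-only regions (37.5%) had the 3-fold excess in BMP4 replicate 2. Examples are a region -1163 bp from Hes1 with 7 and 147 tags, one -1492 bp from Atoh8 with 8 and 94 tags, and one in intron 4 of Pth1r with 27 and 215 tags. Chondrocyte markers had 0 and 17 (0.349%), of which 9 had that excess, as at the promoter of Hapln1 (9 and 145 tags). A region at the promoter of Bambi, a decoy receptor for BMPs, held 23 and 68 tags. Interferon response genes had 5 (0.131%) and 4 (0.0821%), and cell death effectors 10 (0.262%) and 2 (0.0411%). The regions with the highest mean CPM overall lay at Plec (chr15:76195724-76195848, 159 and 114 tags), Scd2, Vcp and Col5a1 in the TNFa+BMP4 list, and past the end of Junb (chr8:84976561-84976685, 323 and 325 tags), at Neat1 and at Eif2b2 in the BMP4 list. Next in the BMP4 list were Padi2 (43 and 427 tags) and Cbwd1 (21 and 461 tags), whose tags were mostly from BMP4 replicate 2. Over all TNFa+BMP4-only regions, 930 were also in the TNFa list but not in the untreated one and 237 the reverse. Over all BMP4-only regions these numbers were 121 and 2206.

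**Figure D4:**
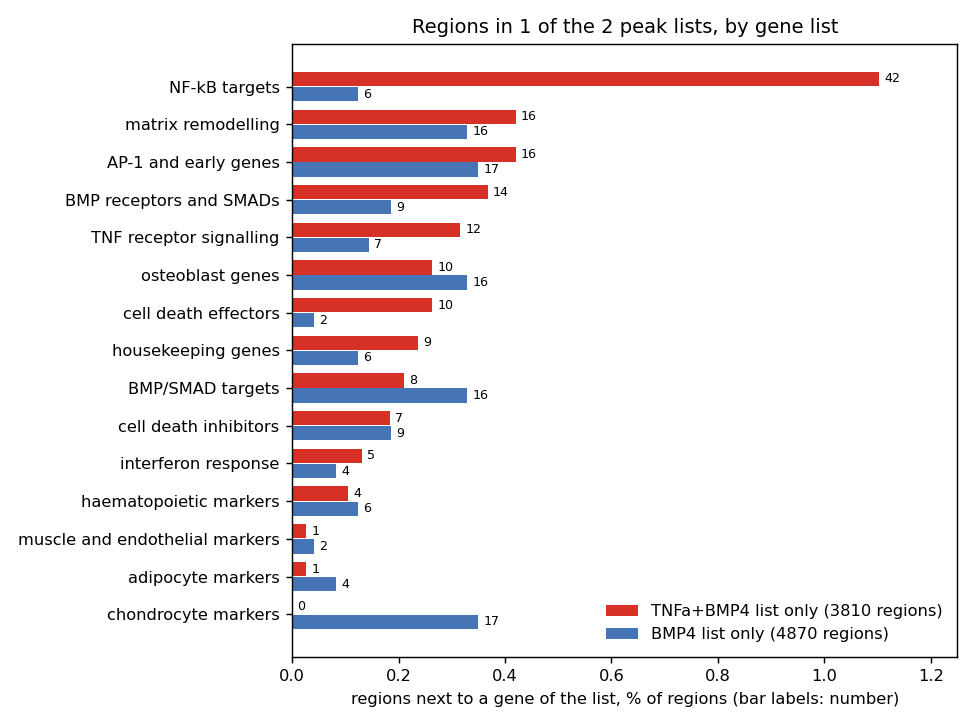
Share of the regions found in a single list that lie next to a gene of each list, in percent of the 3810 TNFa+BMP4-only (red) and 4870 BMP4-only (blue) regions, with the number of regions at each bar. The bars start at 0. NF-kB targets have the longest red bar (42 regions, 1.10%) beside a blue bar of 6, and chondrocyte markers have 0 red and 17 blue.

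The TNFa difference measured with BMP4 was set beside the one measured without it (TNFa minus untreated), in 14654 windows found in all 4 lists and fitted together. These comparisons share no library. Across windows the differences correlated at 0.77, and 77.8% had the same sign, which is a description over windows that share depth and libraries. The deviation of replicate 1 from replicate 2 also correlated between groups, from 0.11 to 0.76 over the pairs of groups, and its part in this correlation was not tested. In limma, 0 of 14654 windows (0%) had a different TNFa difference with BMP4 than without it at an adjusted p of 0.05, and 0 did at an unadjusted p under 0.05, also with voom weights. The smallest unadjusted p in limma was 0.0742. With evenly spread p-values a share of 0.05 of the windows would fall under 0.05, so this fit was conservative and could hardly find a difference. Its 0 does not show that the TNFa difference was the same with and without BMP4.

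Over 62 windows of NF-kB targets the median TNFa difference was 0.28 with BMP4 and 0.42 without it, and over 18 of interferon response genes 0.75 and 0.62. The Ccl2 window at -2447 bp was at 1.83 and 2.24, the Nfkb2 promoter window at 1.85 and 1.87, and the Il6 intron window at 1.52 and 1.31. The Pdgfb window was at 2.72 and 2.46, with a difference between them of 0.27 ± 0.80. For these windows the values with and without BMP4 lay within 1 standard error of each other. That standard error was wide, and these windows were taken from those high with BMP4, so this does not show that the values were alike. Of the 10 lower windows named above, 6 were found in all 4 lists. They were at -2.26 to -1.94 with BMP4 and at -1.88 (Tom1l2) to -0.50 (Zbtb7c) without it. Since they were chosen for their low values with BMP4, the smaller size without it is a description and no result. Osteoblast genes had -0.15 with BMP4 and -0.05 without it, BMP/SMAD targets -0.19 and -0.08, and TNF receptor signalling genes -0.26 and 0.08.

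**Figure D5:**
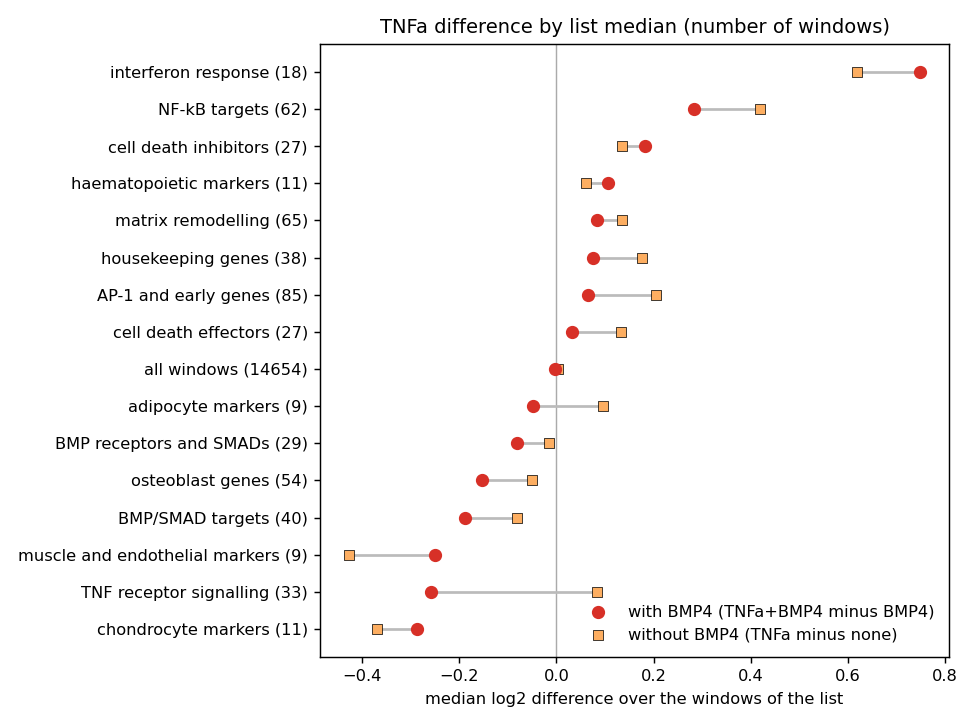
Median log2 difference that TNFa made over the windows of each gene list, with BMP4 (red circles, TNFa+BMP4 minus BMP4) and without it (orange squares, TNFa minus untreated), in windows found in all 4 lists. Interferon response genes (0.75 and 0.62) and NF-kB targets (0.28 and 0.42) lie furthest to the right in both, chondrocyte and muscle or endothelial markers to the left. All windows together sit at 0.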

How the data were processed

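The submitters' processing notes name mm10 and, in no stated order, HOMER 4.11, deepTools 3.5.1, Trimmomatic 0.39, Picard 2.25.1 and Bowtie2 2.5.1. Per the file headers, peaks were called with HOMER on pooled replicates against 2 background libraries, with DESeq2 inside it. The headers call the values per library tag counts, but the values deposited by the authors are regularised log2 values (rlog), fitted in each list separately. The authors' deposited adjusted p-value and log2 fold change over background were not used in a test. No source used here states a shift of reads for the transposase cut.

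Tag counts were recovered by inverting the rlog equation, with 4 constants fitted in each list; 99.3% of values in the BMP4 list and over 99.9% in each other list came out within 0.1 of a whole number, against 28.9% to 43.5% with a constant off by 5%. Differences were fitted with limma 3.58.1 (R 4.3.3) with a mean-variance trend on log2 CPM (pseudocount 2, TMM), over the 4 libraries with group as the only term; the fit with and without BMP4 used all 8. P-values are two-sided, adjusted by Benjamini-Hochberg over all tested windows. Tables and figures used Python 3.11.15 and matplotlib 3.10.9. The recovery and the fit were tested on simulated data. Each ± is a standard error of the fit with n = 2 libraries a group. Fold changes of low windows are understated by the pseudocount.

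Named windows are, per direction, the 10 with the smallest p whose groups do not overlap (1 a gene), the 2 highest and 2 lowest of each of 15 gene lists, the window nearest the start of each of 30 core genes that had one, and, of single-list regions, the 8 a list with the highest mean CPM and those of 3 lists; further windows are shown from the lists. Windows at 2 genes are not reported here. The members and lists were chosen with earlier results of these data known, so no p is given over a list. A window belongs to its nearest gene in the files; where it lies in a transcript of another gene, that gene's name is from the RefSeq table (GRCm38.p6).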

Additional observations from a re-analysis of the deposited data

How the results depend on the processing

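No window passed in any other scaling, filter, pairing or fit or without a replicate, except with the replicate block (3 windows, at 7420700N18Rik, Herc1 and Dlg4, all higher, and 1501 at an unadjusted p under 0.05) and without BMP4 replicate 1 (0 to 1099 over the libraries left out). Groups share replicate numbers (deviations of replicate 1 from 2 correlated at 0.62 between BMP4 and TNFa+BMP4), but with 2 numbers these are not taken as pairs. For the difference with and without BMP4, the block gave 0 windows, as did leaving out each of 8 libraries. The NF-kB median ran from 0.24 to 0.61 over settings and from 0.26 to 0.76 over libraries left out. The BMP/SMAD median was -0.34 with total tags, -0.30 with identical starts and -0.031 with deposited rlog values (-0.28 to -0.078 without a replicate). The osteoblast median was -0.29 with total tags and 0.033 with deposited rlog values (-0.36 to -0.017 without a replicate). Joining regions over 2000 bp left 32 and 5 NF-kB regions, and this setting and the total-tags count of separated windows were chosen after seeing the data. Of 109 named windows, 73 kept their sign in every alternative, and 1755 of 1807 fits had the sign of the reported value. The 73 include the 20 windows chosen for the smallest p with groups apart, all of which kept it. With deposited rlog values the sign turned for the windows nearest the starts of Rel (0.064, and 0.0032 with quantile scaling), Runx2 (0.11), Csf1 (0.040), Id3 (0.12) and Fosl2 (0.056), and with total tags for Relb (-0.039). Leaving out 1 library turned the sign of the window nearest the start, over these ranges, for Rel (-0.40 to 0.31), Lif (-0.028 to 1.32), Irf1 (-0.30 to 0.76), Tnip1 (-0.33 to 0.79), Ccl2 (-0.76 to 1.41), Id2 (-1.61 to 0.0024), Nfkbia (-0.14 to 2.32), Sp7 (-0.49 to 1.253), Runx2 (-0.68 to 0.36), Smad7 (-0.50 to 0.21), Atf3 (-0.58 to 1.12), Cflar (-0.14 to 0.68), Id1 (-0.76 to 0.49), Bcl2l1 (-0.030 to 0.43), Csf1 (-0.82 to 0.75), Vcam1 (-0.68 to 0.54), Mcl1 (-1.56 to 0.41), Fosl2 (-0.70 to 0.12), Atoh8 (-0.75 to 0.14), Relb (-0.33 to 0.63) and Bcl3 (-0.013 to 1.51), while Id3 stayed between -0.42 and -0.20. It also turned the sign of windows at the ends of their lists, at Stat2 (-1.48 to 0.35), Pecam1 (-0.22 to 0.55), Ppia (-0.46 to 2.73), Sharpin (-0.33 to 3.00), Runx1 (-1.57 to 0.13), Traf5 (-1.01 to 3.49), Bcl2l11 (-2.04 to 0.049), Sox6 (-0.036 to 3.21), Bbc3 (-0.49 to 3.39), Fosb (-3.55 to 0.019), Cdh5 (-0.55 to 1.13), Zfp423 (-0.51 to 3.28), Loxl1 (-2.66 to 0.12) and Pgk1 (-2.03 to 0.11). The cause was not tested. Depth limits these results: 1 CPM stands for 0.860 to 1.80 tags, and with 2 libraries a group the standard error of a difference had a median of 0.75.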
